A study of Homo sapiens with 6 samples.

Results

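Zinc transporters of the SLC30 and SLC39 families were examined in LNCaP, a human prostate cancer cell line, with and without knockdown of PSMA (prostate-specific membrane antigen), which FOLH1 encodes. They were taken as every probe set of the array whose platform annotation names exactly 1 of 10 genes: SLC30A1, SLC30A4, SLC30A5 and SLC30A9, and SLC39A1, SLC39A4, SLC39A6, SLC39A7, SLC39A8 and SLC39A14. This gave 15 probe sets of 22277, and 10 genes of the 11963 that had a probe set with 1 gene symbol. No probe set with several symbols held any of the 10 genes. The 6 arrays were 3 of control cells (LNCaP_untreated) and 3 of cells carrying a transduced retroviral shRNA-mir against PSMA (LNCaP_PSMAknockdown), all grown in RPMI. The labels name no empty vector in the controls, do not say whether the knockdown cells are a clone or a pool, and do not say whether replicates were separate cultures, so that p-values cover the array-to-array spread alone, which may be purely technical.

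Cells move zinc with these families in opposite directions. SLC30 proteins (ZnT) export zinc from the cytosol, out of the cell or into vesicles and organelles, whereas SLC39 proteins (ZIP) import it into the cytosol from outside or from organelles. Free zinc activates the transcription factor MTF1, which binds metal response elements and induces metallothioneins, the main zinc-binding proteins of the cytosol, and the exporter SLC30A1. Normal prostate epithelium is known for a high zinc content, which slows the oxidation of citrate and is largely lost in prostate cancer, and PSMA itself is a zinc-dependent peptidase.

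All values are log2 of GCRMA intensity (a background-corrected, between-array normalized measure per probe set), and differences are knockdown minus control. Probe sets differ in brightness for reasons other than transcript number, so a level is compared only with the same probe set in other arrays. The 5 probe sets paired with FOLH1 or its near-identical copy FOLH1B were all lower in knockdown arrays, with log2 differences from -2.72 to -0.79, yet 215363_x_at still measured 10.27 ± 0.07 (SD, n = 3) in knockdown arrays, down from 12.50 ± 0.03. All 10 probe sets of the luminal prostate markers KLK3, KLK2, TMPRSS2, KRT8, KRT18 and HOXB13 passed the filter on low signal described below; 3 of them rose (KLK2 by 0.41, TMPRSS2 by 0.28 and 0.26) and 3 fell (KLK3 by 0.71 and 1.01, HOXB13 by 0.25), all on the log2 scale. Of markers of other cell types, the filter was passed by 1 of 2 basal probe sets (KRT5), 4 of 10 fibroblast probe sets (COL1A1 and DCN), 1 of 4 leukocyte probe sets (CD3E, with PTPRC failing on all 3) and 2 of 4 endothelial probe sets (PECAM1 and VWF). Among these, only COL1A1 was called, lower by 0.26 on 1 of its 3 tested probe sets. Over all tested probe sets, pairs of arrays from 1 group differed with an SD of 0.147 to 0.175 on the log2 scale, and pairs from different groups with an SD of 0.363 to 0.387. The array's control probe sets also separated the groups: the 18 hybridisation controls averaged 11.34 ± 0.08 in control and 10.51 ± 0.13 in knockdown arrays (SD, n = 3), and the 5′ minus 3′ signal of beta-actin, GAPDH and 4 poly-A spike transcripts was lower in knockdown arrays by log2 differences of -0.97 to -0.10. Each of these 7 measures gave p = 0.1 in a two-sided exact permutation test, the smallest that 3 arrays against 3 allow. The knockdown and the processing of its arrays cannot be told apart in this design, and the part of these control differences in the values that follow was not tested.

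Zinc transporter signal was lower or not called different in knockdown cells, and no probe set rose. Of the 15 probe sets, 14 passed the filter on low signal (log2 of at least 4 in at least 3 arrays) and were tested; 6 fell and 0 rose at an adjusted p under 0.05 with limma, and 8 were not called. Among all 15852 probe sets tested, 17.8% fell and 16.6% rose. The falls came from 5 of the 10 genes: the importers SLC39A8, SLC39A6 and SLC39A14 and the exporters SLC30A4 and SLC30A1. In each of the 6, every knockdown array lay under every control array, an arrangement found for 24% of all tested probe sets in that direction and for 24.3% in the other. The median log2 difference of the 14 was -0.15, against 0.01 over all tested probe sets. The 4 exporters had 5 tested probe sets, of which 2 fell, and the 6 importers had 9, of which 4 fell. Only probe sets of SLC39A8 fell by 2-fold or more, 2 of the 14, beside 1.31% of all tested probe sets. Several probe sets of a gene can read the same transcripts and are not taken as independent.

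**Figure D1:**
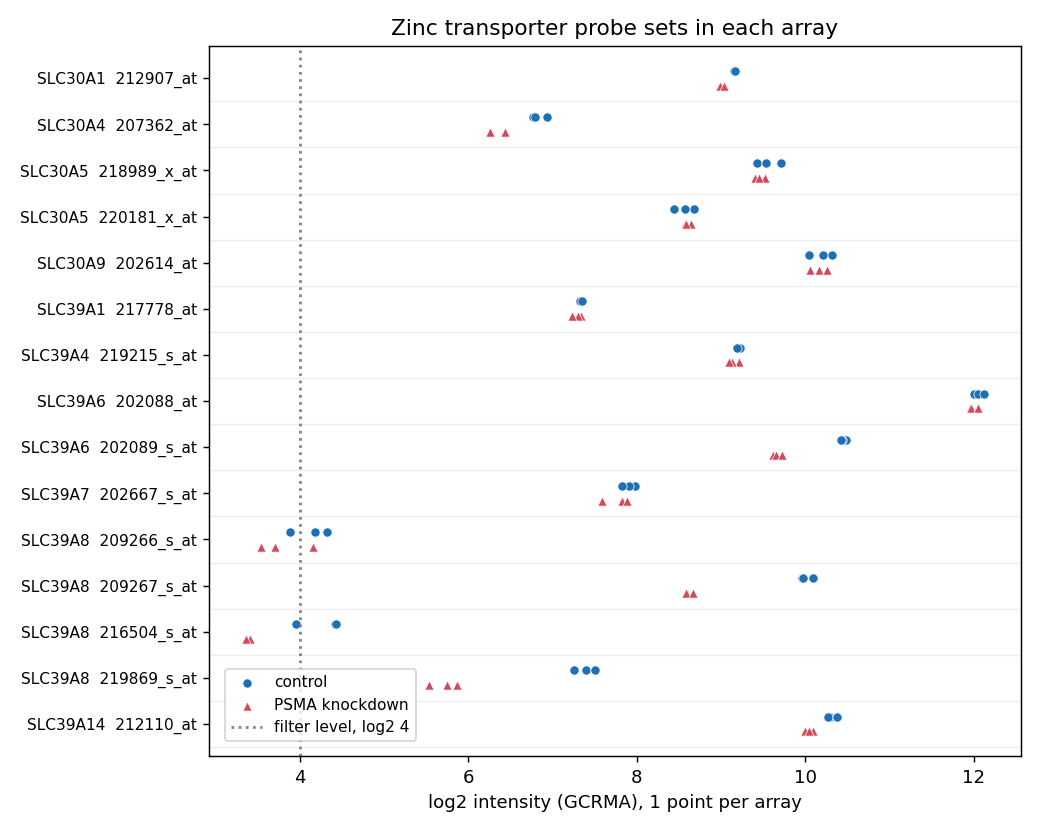
Log2 GCRMA intensity of all 15 zinc transporter probe sets (rows) in each of the 6 arrays, with circles for the 3 control arrays and triangles for the 3 PSMA knockdown arrays; levels are comparable within a row only. SLC39A8 probe sets 209267_s_at and 219869_s_at show the widest gaps between the groups, and a dotted line marks the filter level of log2 4.

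SLC39A8 (ZIP8), an importer of the cell surface that carries zinc, manganese, iron and cadmium, differed most. Its brightest probe set, 209267_s_at, measured 9.96, 9.98 and 10.09 in the control arrays and 8.60, 8.58 and 8.67 in the knockdown arrays. The groups lay far apart relative to their own spread, and the fall was 2.63-fold, a log2 difference of -1.39 (SE 0.06, limma adjusted p = 9.6e-06). In deposited intensities this was 993, 1010 and 1090 in control and 387, 383 and 407 in knockdown arrays. A second SLC39A8 probe set, 219869_s_at, read 7.25, 7.40 and 7.50 in control arrays and 5.86, 5.74 and 5.53 in knockdown arrays. It too separated the groups without overlap, with a 3.19-fold fall and a log2 difference of -1.67 (SE 0.10, limma adjusted p = 4.2e-05). Ordered from the most negative difference, 219869_s_at stood at rank 33 and 209267_s_at at rank 67 among the 15852 tested.

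The other SLC39A8 probe sets were near the floor of the array. 216504_s_at measured 4.42, 3.95 and 4.43 in control arrays and 3.40, 3.40 and 3.36 in knockdown arrays. Its groups did not overlap, but only 2 arrays reached log2 4, and all knockdown values lay under that level, so it was not tested. 209266_s_at read 4.32, 3.88 and 4.18 in control arrays and 4.15, 3.70 and 3.54 in knockdown arrays. Here the groups overlapped, and the difference of -0.33 (95% interval -0.73 to 0.06, limma adjusted p = 0.171) was not called. The RNA was extracted from whole cultures, so fewer expressing cells and less SLC39A8 RNA per cell cannot be told apart, here or for any other gene.

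SLC39A14 (ZIP14), the closest relative of SLC39A8 in the family and likewise a carrier of zinc, manganese and iron, fell by much less. Its probe set 212110_at gave deposited intensities of 1260, 1230 and 1330 in control arrays and 1030, 1090 and 1060 in knockdown arrays. Every knockdown array was under every control array, and the log2 difference of -0.27 (SE 0.05, limma adjusted p = 0.00768) amounts to a 1.21-fold fall.

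SLC39A6 (LIV-1, ZIP6), an oestrogen-responsive zinc importer of the plasma membrane, gave readings that disagreed between its probe sets. 202089_s_at measured 10.48, 10.44 and 10.43 in control arrays and 9.62, 9.65 and 9.72 in knockdown arrays. These groups were widely separated, with a 1.72-fold fall (log2 difference -0.78, SE 0.05, limma adjusted p = 6.9e-05). 202088_at, in contrast, read 12.01, 12.05 and 12.12 in control arrays and 11.96, 11.97 and 12.05 in knockdown arrays. Those groups overlapped, and the difference of -0.07 (95% interval -0.20 to 0.06, limma adjusted p = 0.381) was not called. Within each array, 202089_s_at minus 202088_at averaged -1.61 ± 0.08 for controls and -2.33 ± 0.01 for the knockdown (SD, n = 3), which differ by -0.72. A two-sided exact permutation test on it, chosen after the values were seen, gave p = 0.1, the smallest that 3 against 3 allow. SLC39A6 as a gene was therefore lower on 1 of its 2 probe sets only, and which transcripts or transcript ends each reads was not analysed here.

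The remaining importers were not called. SLC39A1 (ZIP1), which takes up zinc at the plasma membrane and has been described as reduced in prostate cancer tissue, read 7.32, 7.33 and 7.35 in control arrays and 7.34, 7.30 and 7.23 in knockdown arrays. Its groups overlapped, with a log2 difference of -0.04 (95% interval -0.16 to 0.08). SLC39A4 (ZIP4), the intestinal zinc importer mutated in acrodermatitis enteropathica, measured 9.21, 9.23 and 9.19 against 9.22, 9.13 and 9.10, a difference of -0.06 (95% interval -0.18 to 0.07). SLC39A7 (ZIP7), which releases zinc from the endoplasmic reticulum and Golgi into the cytosol, measured 7.98, 7.91 and 7.82 against 7.83, 7.88 and 7.59, a difference of -0.14 (95% interval -0.34 to 0.07). For these 3 genes limma adjusted p values were 0.537, 0.438 and 0.264. None of the 3 intervals reached a 2-fold change in either direction.

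Among the exporters, SLC30A4 (ZnT4), which moves zinc into intracellular vesicles, had the largest fall. Its probe set 207362_at measured 6.93, 6.77 and 6.79 in control arrays and 6.44, 6.26 and 6.26 in knockdown arrays. The groups did not overlap, and the 1.42-fold fall had a log2 difference of -0.51 (SE 0.07, limma adjusted p = 0.00179). SLC30A1 (ZnT1), the zinc exporter of the plasma membrane and an MTF1 target, gave 9.15, 9.16 and 9.17 in control arrays and 8.99, 8.99 and 9.04 in knockdown arrays on 212907_at. All knockdown arrays were slightly under all control arrays, a 1.11-fold fall with a log2 difference of -0.16 (SE 0.05, limma adjusted p = 0.038). This call was lost without control replicate 1, 2 or 3 or knockdown replicate 1 or 2 (adjusted p = 0.0785, 0.103, 0.08, 0.0823 and 0.111), and its adjusted p ranged from 0.0168 to 0.111 over all 15 alternatives. It was also lost when arrays were centred on their medians (log2 difference -0.12, adjusted p = 0.0923) or quantile normalized (-0.13, adjusted p = 0.0759).

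SLC30A5 (ZnT5), which with SLC30A6 loads zinc into the early secretory pathway for enzymes such as alkaline phosphatases, had overlapping groups on both of its probe sets. 218989_x_at measured 9.43, 9.54 and 9.71 in control arrays and 9.52, 9.40 and 9.45 in knockdown arrays, a log2 difference of -0.10 (95% interval -0.29 to 0.08, limma adjusted p = 0.345). 220181_x_at measured 8.68, 8.44 and 8.57 against 8.65, 8.57 and 8.58, a difference of 0.04 (95% interval -0.13 to 0.20, limma adjusted p = 0.699). SLC30A9 (ZnT9), a zinc exporter of mitochondria, read 10.05, 10.21 and 10.32 in control arrays and 10.16, 10.06 and 10.26 in knockdown arrays. Its difference of -0.03 (95% interval -0.23 to 0.16, limma adjusted p = 0.782) was smaller than the spread within either group, and its sign turned when arrays were centred on their medians.

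**Figure D2:**
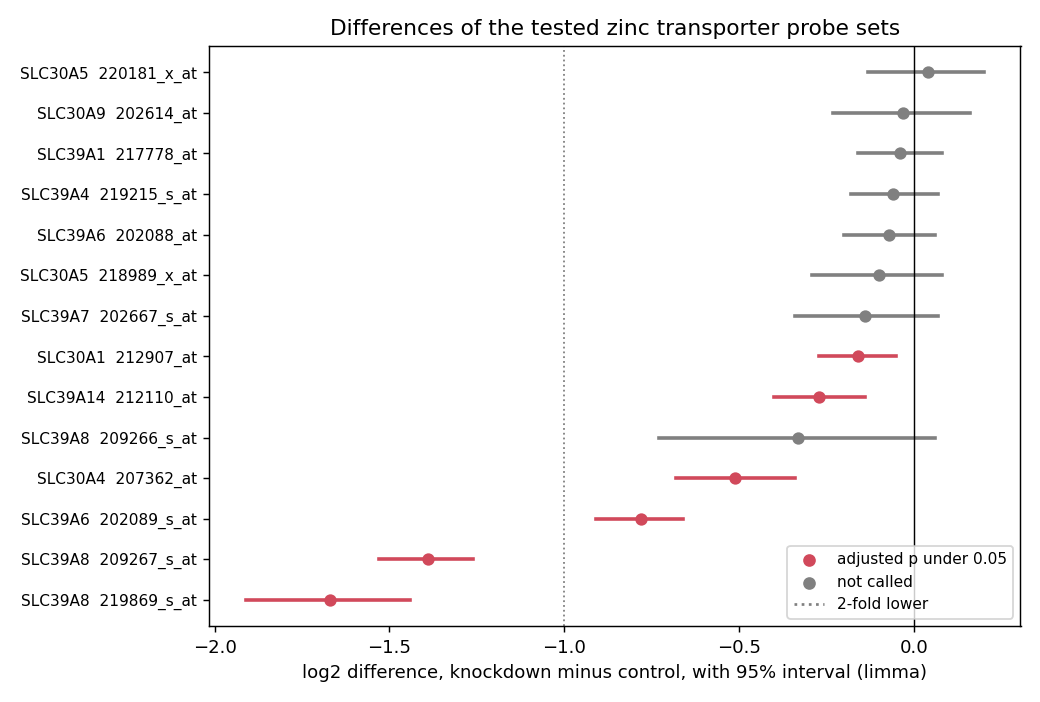
Log2 difference, knockdown minus control, of the 14 tested zinc transporter probe sets with 95% intervals from limma; red points passed an adjusted p of 0.05 and grey points did not. Both red SLC39A8 intervals lie wholly beyond the dotted line of a 2-fold fall, while SLC39A6 appears once at -0.78 and once at -0.07.

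With each gene represented by its probe set of highest mean signal, 4 of the 10 transporters fell and 0 rose among 9241 genes tested, of which 16.5% fell. These were SLC39A8 (-1.39), SLC30A4 (-0.51), SLC39A14 (-0.27) and SLC30A1 (-0.16). SLC39A6 was represented by 202088_at and was not called in this view (log2 difference -0.07, limma adjusted p = 0.366). With the mean of a gene's tested probe sets instead, SLC39A6 had a log2 difference of -0.43 (limma adjusted p = 5.1e-04) and 5 genes fell.

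**Figure D3:**
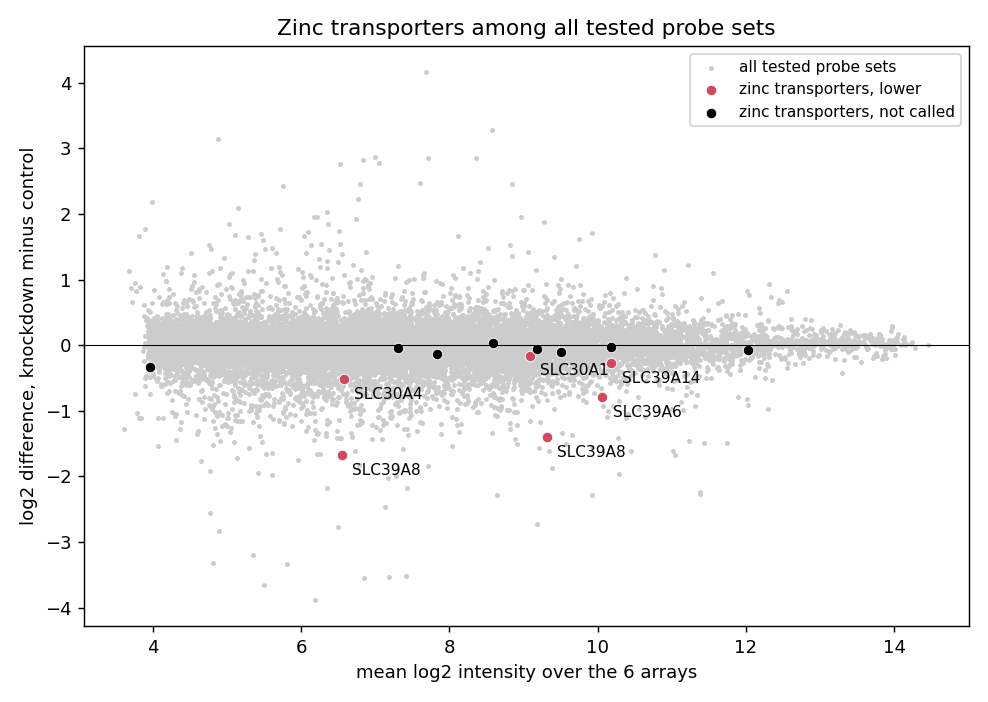
Log2 difference, knockdown minus control, against mean log2 intensity for all 15852 tested probe sets (grey), with the 14 zinc transporter probe sets in red where they fell and in black where they were not called. The 2 SLC39A8 points, at -1.67 and -1.39, lie below most probe sets of like signal, and the other named points lie within the cloud.

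Promoter sequence is shown because metal response elements tie zinc level to transcription in this pathway. It covers the 4 genes that had a lowered probe set and have an entry in the RefSeq table used (GRCh38.p14). SLC39A6 is among them through 202089_s_at alone, and the SLC30A1 call was lost in 9 of 15 alternatives. The windows are the 250 bases before the start farthest upstream, at chr4:102345483-102345732 for SLC39A8, chr18:36129341-36129590 for SLC39A6, chr15:45522756-45523005 for SLC30A4 and chr1:211579162-211579411 for SLC30A1, all genes of the minus strand and read 5′ to 3′ along the gene. Capitals mark matches to the 7-base core of the element, searched as TGCACNC and TGCGCNC on both strands; in SLC30A1 the match is on the opposite strand and appears as its reverse complement.
SLC39A8: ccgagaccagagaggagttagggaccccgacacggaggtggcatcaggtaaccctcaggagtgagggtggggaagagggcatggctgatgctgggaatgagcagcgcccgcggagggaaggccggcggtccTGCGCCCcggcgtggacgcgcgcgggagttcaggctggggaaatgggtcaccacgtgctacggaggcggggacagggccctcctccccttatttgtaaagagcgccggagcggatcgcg
SLC39A6: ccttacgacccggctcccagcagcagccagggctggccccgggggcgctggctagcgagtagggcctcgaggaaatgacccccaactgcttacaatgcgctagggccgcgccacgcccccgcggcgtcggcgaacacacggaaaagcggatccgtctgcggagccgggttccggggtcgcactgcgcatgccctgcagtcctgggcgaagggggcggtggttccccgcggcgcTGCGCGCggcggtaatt
SLC30A4: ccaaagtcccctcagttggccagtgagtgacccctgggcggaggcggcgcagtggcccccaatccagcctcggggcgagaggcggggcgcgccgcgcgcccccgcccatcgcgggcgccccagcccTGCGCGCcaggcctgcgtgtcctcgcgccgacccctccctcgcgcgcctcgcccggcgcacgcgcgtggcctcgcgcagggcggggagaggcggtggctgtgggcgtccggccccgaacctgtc
SLC30A1: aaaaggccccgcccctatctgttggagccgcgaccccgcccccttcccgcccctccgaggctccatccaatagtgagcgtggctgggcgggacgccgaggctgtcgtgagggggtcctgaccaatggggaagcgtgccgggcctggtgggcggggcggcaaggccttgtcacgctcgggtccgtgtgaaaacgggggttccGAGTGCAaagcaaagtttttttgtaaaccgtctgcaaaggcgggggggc

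Each of these 4 windows held 1 match, beginning 119, 17, 124 and 49 bases before the start for SLC39A8, SLC39A6, SLC30A4 and SLC30A1. The further 2 SLC39A8 windows in the table held 0. Of the 4 other members in the table, none of SLC30A5, SLC30A9 and SLC39A7 had a match, and 1 of the 2 windows of SLC39A1 had 1. At least 1 match was present in 24.8% of all 35116 windows of this length and at least 2 in 6.48%, whereas the window of MT2A held 7 and that of MT1X 4. SLC39A4 and SLC39A14 have no entry. A match is a description of letters and not a measured binding site.

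Metallothioneins, which buffer zinc, were lower in knockdown cells on most of their tested probe sets. In a list of 12 genes that sense and buffer zinc, 10 genes had 15 probe sets, 13 of which were tested, and 8 fell and 1 rose, where 17.8% and 16.6% of all tested probe sets did. The list's median log2 difference was -1.49, against 0.01 over all tested probe sets. MT2A, the most widely expressed metallothionein in human cells, measured 12.18, 12.15 and 12.19 in control arrays and 10.75, 10.71 and 10.60 in knockdown arrays on 212185_x_at. That is a 2.80-fold fall (log2 difference -1.49, limma adjusted p = 6.9e-06). MT1X (-1.61 and -1.68), MT1G (-1.62), MT1H (-1.56) and MT1F (-1.57 and -1.50) fell to a like degree. MT1E fell on 216336_x_at (-0.91) but was not called on 212859_x_at (-0.26, limma adjusted p = 0.19). All 8 lowered probe sets are of the _x_at kind, which can bind related transcripts, so falls of single MT1 genes and MT2A cannot be separated and are not independent. MT1G has a further probe set, 210472_at, which is not of that kind. It was near the floor, at 3.14 in every control array and at 3.24, 3.14 and 3.07 in knockdown arrays, and was not tested. The brain-type MT3 was at 5.33 ± 0.08 in control and 5.30 ± 0.07 in knockdown arrays (SD, n = 3) and was not called. MTF1, the zinc sensor, rose on 205323_s_at from 6.65, 6.64 and 6.76 to 7.07, 7.07 and 6.97, a log2 difference of 0.35 (limma adjusted p = 0.00386). Its second probe set, 205322_s_at, was listed at 7.04 in 5 of the 6 arrays and at 6.76 in knockdown replicate 2, and was not called (-0.10, limma adjusted p = 0.411).

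Of 15 further zinc transporters, 5 had a probe set here and 3 were tested, and 0 of their 3 tested probe sets were called. Over all tested probe sets 17.8% fell and 16.6% rose, so most were not called, and 3 are too few to set against those shares. SLC30A3 (ZnT3, which fills synaptic vesicles) had the largest difference, at 0.14 (limma adjusted p = 0.297), and SLC39A2 was at -0.08 (limma adjusted p = 0.599). SLC39A9, a Golgi importer, was at 6.63 ± 0.07 in control and 6.65 ± 0.02 in knockdown arrays (SD, n = 3) on its tested probe set. SLC30A6, the partner of SLC30A5, did not pass the filter.

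In citrate metabolism, whose mitochondrial step is slowed by zinc in prostate cells, 12 probe sets of 8 genes were tested, and 3 rose and 1 fell, with a median of -0.03; over all tested probe sets the shares were 16.6% and 17.8%. IDH1, the cytosolic isocitrate dehydrogenase, fell by 0.26 on the log2 scale (limma adjusted p = 0.00566). IDH2, its mitochondrial counterpart, rose on both probe sets, by 0.19 and 0.36 (limma adjusted p = 0.0306 and 0.00432). The sodium-coupled dicarboxylate and citrate carrier SLC13A3 rose by 0.24 on a dim probe set (limma adjusted p = 0.0368), a call lost in 9 of its 14 alternatives, while its other probe set was at -0.05. The call of IDH2 on 210045_at was lost without control replicate 1 or 2 or knockdown replicate 2 (adjusted p = 0.0914, 0.0807 and 0.103), and that of SLC13A3 without any 1 of the 6 arrays other than control replicate 3 (adjusted p = 0.0567 to 0.119). The probe sets of citrate synthase CS (-0.09), ATP-citrate lyase ACLY (-0.25, -0.03 and -0.01) and the mitochondrial citrate carrier SLC25A1 (-0.15) were not called.

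Genes of iron and manganese handling, metals that SLC39A8 and SLC39A14 also carry, had calls in both directions: of 12 tested probe sets 4 rose and 3 fell, beside 16.6% and 17.8% of all tested probe sets, with a median of 0.06. SLC11A2 (DMT1), a proton-coupled importer of iron and other divalent metals, read 9.12, 9.13 and 9.25 in control arrays and 9.70, 9.75 and 9.66 in knockdown arrays on 203124_s_at. The groups did not overlap, and the rise of 1.45-fold (log2 difference 0.54, limma adjusted p = 5.2e-04) was accompanied by 0.22 on 203123_s_at (limma adjusted p = 0.00979). Its dimmer probe sets 203125_x_at and 210047_at, at -0.13 and -0.02, were not called. The transferrin receptor TFRC fell on both probe sets, by 0.23 and 0.20 on the log2 scale, and the ferritin light chain FTL rose by 0.21 on 213187_x_at. Without any 1 array other than knockdown replicate 3, the call of TFRC on 208691_at was lost (adjusted p = 0.0732 to 0.108), and that of FTL was lost without control replicate 2 or 3 or knockdown replicate 1 or 2 (adjusted p = 0.0873 to 0.0962). STEAP1, a prostate-enriched membrane protein of the metalloreductase family, fell by 0.35 (limma adjusted p = 0.00269). The ferroxidase HEPH read 2.62, 3.18 and 3.16 in control arrays and 5.01, 4.72 and 4.21 in knockdown arrays on 203903_s_at, which is 1 of the 4 counted rises. It passed the filter through the knockdown arrays alone and failed it without any 1 of them, and all its control values lay under log2 4, so it is given by its levels and not as a tested rise. With values under log2 4 raised to 4 its difference was 0.65. The other HEPH probe set, 203902_at, read 2.83, 2.84 and 2.60 in control arrays and 2.77, 2.87 and 2.77 in knockdown arrays. Those groups overlapped under the filter level, and it was not tested. Of 4 tested probe sets for secretory alkaline phosphatases, which receive zinc in the secretory pathway, 1 counted as a rise, that of ALPP. The others were not called, and the list median was 0.06. ALPP read 3.86, 4.12 and 3.91 in control arrays and 4.36, 4.25 and 4.16 in knockdown arrays. Only 1 control array reached log2 4, so ALPP too is given by its levels and not as a tested rise. Its call was lost without control replicate 1 or 3 or knockdown replicate 1 or 2 (limma adjusted p = 0.0899 to 0.109). It was also lost with no filter (0.0527), 16 added to intensities (0.0598), quantile normalization (0.0519) or the alternative variance model (0.0532).

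**Figure D4:**
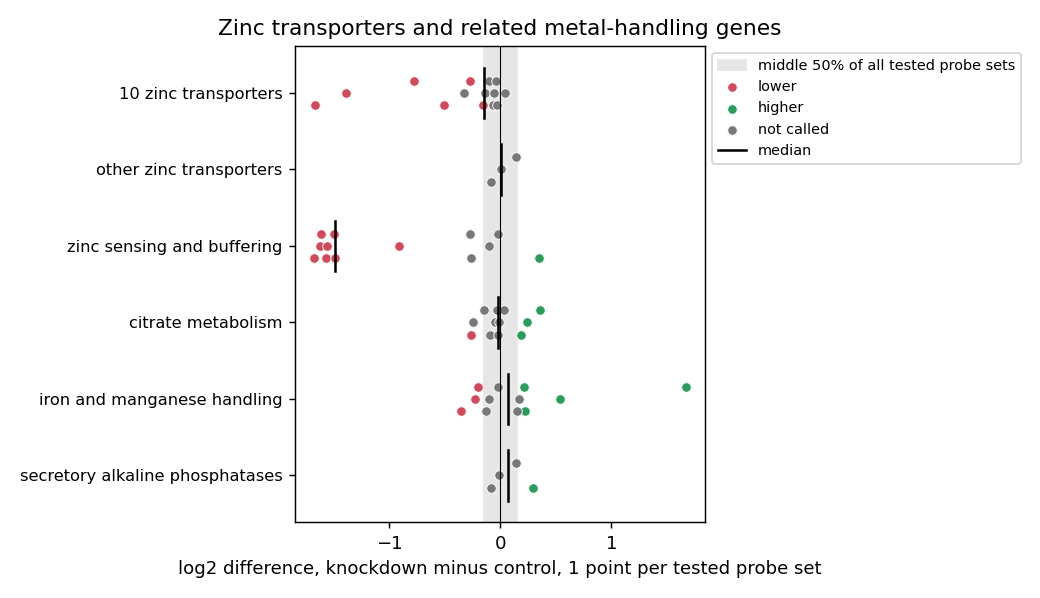
Log2 difference, knockdown minus control, of each tested probe set (points) for the 10 zinc transporters and 5 lists of related genes, with the list median as a black bar and the middle 50% of all tested probe sets shaded. The zinc sensing and buffering list, mostly metallothioneins, has its median at -1.49, and the transporters range from -1.67 to 0.04.

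SLC39A8 on 219869_s_at, the tested member with the largest difference, was also compared with every tested probe set of other genes that has 1 gene symbol. The highest Pearson correlations over the 6 arrays were with GTF3A (0.9997), ME2 (0.9996) and TRIM2 (0.9994), whose log2 differences were -0.48, -0.48 and -0.85. GTF3A encodes a factor for 5S ribosomal RNA transcription, ME2 a mitochondrial malic enzyme and TRIM2 a ubiquitin ligase. These values describe 6 arrays in which the groups share 1 large gap, and 978 of 13918 probe sets exceeded 0.95.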

How the data were processed

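The deposited file holds linear-scale intensities, 1 value per probe set, from 6 Affymetrix arrays, 1 per sample, made from 2 ug of total RNA. The authors had processed them with GCRMA, per the submitters' processing notes; no version or setting of it is stated there. Array medians ran from 48.2 to 50.3. Arrays carry no read depth, so their number limits the precision. Of 22277 probe sets, 62 were controls; of the rest 19064 had 1 symbol, 1043 several and 2108 none in the platform annotation, and all 10 member symbols are current in RefSeq.

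Intensities were log2-transformed. Groups and replicate numbers came from the sample titles. Non-control probe sets with log2 of at least 4 (intensity 16) in at least 3 arrays were fitted with limma 3.58.1 (lmFit, eBayes; R 4.3.3); p-values were adjusted over all 15852 (Benjamini-Hochberg), and a probe set was called at an adjusted p under 0.05. The fit was tested on simulated data. Control measures and the SLC39A6 contrast used two-sided exact permutation tests. Every member probe set was named; from each other list, genes with a called probe set were named, or otherwise up to 2 with the largest difference, and any further gene was named as an example after its values were seen. The 3 probe sets of other genes most like the member with the largest difference were named by Pearson correlation. The members and lists were chosen with earlier results of these data known.

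Alternatives changed the filter, low values, normalization, variance model, array weights, replicate block, probe sets per gene and threshold, and left out each array.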

Additional observations from a re-analysis of the deposited data

How the results depend on the processing

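No alternative called any zinc transporter higher. Across 15 alternatives each, SLC39A8 ranged from -1.42 to -1.35 on 209267_s_at and from -1.75 to -1.42 on 219869_s_at, SLC39A6 on 202089_s_at from -0.81 to -0.75, SLC30A4 from -0.57 to -0.44 and SLC39A14 from -0.29 to -0.23, each called in all 15. The SLC30A1 call was lost in 9. The number of lowered zinc transporter probe sets was 5 or 6 throughout. The 6 without a filter include SLC39A8 216504_s_at, whose knockdown values all lay under log2 4, and not SLC30A1. At an adjusted p under 0.01 it was 5, and over all probe sets 1382 rose and 1654 fell, against 2624 and 2823 at 0.05. Centring arrays on their medians gave 3389 rises and 2410 falls over all probe sets. Signs turned only in uncalled results: SLC30A9, per probe set and per gene, was 0.00 with centred arrays and ran from -0.10 to 0.03 with single arrays left out, turning to 0.03 and 0.01 without control replicate 3 and knockdown replicate 2, and SLC30A5 220181_x_at ran from -0.02 (without control replicate 2) to 0.10. The 9 rises among the other zinc, citrate and metal probe sets became 5 with no filter, and 4 to 8 with single arrays left out (5 without knockdown replicate 1, 4 without knockdown replicate 2). The rises lost with no filter were SLC13A3, IDH2 on 210045_at, FTL and ALPP (limma adjusted p = 0.0569, 0.0527, 0.0533 and 0.0527). The fall of TFRC on 208691_at was also lost with no filter (limma adjusted p = 0.06) and with arrays centred on their medians (limma adjusted p = 0.0819). Without knockdown replicate 1 or 2, HEPH failed the filter and SLC13A3, FTL and ALPP lost their calls, as did IDH2 on 210045_at without replicate 2. Deviations of same-numbered arrays correlated at 0.11, -0.02 and 0.12, so the numbers were not taken as pairs; with the replicate number as a block, 5 zinc transporter probe sets fell, SLC30A1 was at -0.16 (adjusted p = 0.0648), and 2521 probe sets rose and 2775 fell. Low signal limits SLC39A8 209266_s_at and 216504_s_at, SLC13A3, HEPH and ALPP.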

Other observations

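Genes beside SLC39A8, SLC39A6 and SLC30A4 on their chromosomes were read after the data had been seen. Those beside SLC39A14 and SLC30A1, which also had a lowered probe set, were not read. The 3 measured genes on each side of SLC39A8 on chromosome 4, in RefSeq order (GRCh38.p14) and by the brightest probe set, were H2AZ1 (-0.23), PPP3CA (0.01), BANK1 (-0.19), NFKB1 (-0.08), MANBA (0.00) and BDH2 (-0.25). Of these H2AZ1 alone passed the test (limma adjusted p = 0.0143), and the median over the 289 measured genes of the chromosome was -0.03. Around SLC39A6 on chromosome 18, GALNT1 (-0.39), MOCOS (-0.82) and TPGS2 (-0.38) fell, FHOD3 rose by 0.63, and ZNF24 (0.16) and RPRD1A (0.05) were not called, with a chromosome median of 0.01 over 127 genes. Around SLC30A4 on chromosome 15, SQOR (-0.75) and CEP152 (-0.47) fell and SPG11 (-0.03), B2M (0.15), AFG2B (0.13) and DUT (0.00) were not called. The chromosome median was 0.03 over 271 genes. Among all 9241 genes tested by the brightest probe set 16.5% fell, and among all tested probe sets 16.6% rose. Whether neighbours were called more often than that was not tested.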
